A study of Mus musculus with 6 samples.

Results

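The genes described here are hypoxia-inducible genes that lie outside glycolysis, read in mouse embryonic stem (ES) cells with and without Zscan5b. They were taken from a list of 36 names, and every array probe carrying one of those names was used. Ak3l1 is an older name of Ak4, which the array lists as Ak4, so the names stand for 35 genes with 55 probes, among 39429 gene probes in all. Of these, 34 genes with 53 probes could be tested. Mxi1, an antagonist of Myc, has 1 probe, which was not well above background on any array, and the dimmest of 3 Plod1 probes was likewise not tested. The rule uses gene names and no measured value, but the names were chosen with earlier results of these data known. Counts and medians over the members are therefore descriptions and not an independent test.

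Cy3-labelled total RNA was read on Agilent arrays of 1 colour, with 3 arrays of wild type ES cells and 3 of ES cells carrying a Zscan5b knockout. Zscan5b is a SCAN domain member of the zinc finger proteins. Cells of both genotypes were held undifferentiated with leukemia inhibitory factor on mouse embryonic fibroblasts inactivated with mitomycin C, so feeder RNA can be present in every sample. The labels call the samples biological replicates but give no position for the deletion, no way it was made and no clone, and name no low-oxygen treatment. P-values therefore measure the spread between these samples. Levels are log2 processed signal minus the 75th percentile of the same array, and a log2 fold change is knockout minus wild type on that scale.

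Cells sense oxygen through hypoxia-inducible factors (HIF), made of an alpha subunit such as Hif1a or Epas1 and the beta subunit Arnt. With oxygen present, prolyl hydroxylases of the Egln family mark the alpha subunit for the Vhl ubiquitin ligase. With little oxygen the alpha subunit is kept, pairs with Arnt and binds a short sequence with the core RCGTG near its target genes. Those targets reach beyond glycolysis to mitochondrial turnover, growth arrest, angiogenesis, pH balance, collagen modification and histone demethylation.

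Over the 6 arrays the 75th percentile of signal ranged from 852.4 to 1028, and 25371 to 27754 probes were well above background. Each genotype occupied a slide and a scan of its own, so batch and genotype cannot be told apart in any result here. Zscan5b itself read -3.66, -4.03 and -3.12 in the wild type arrays and -4.47, -5.17 and -5.13 in the knockout, a difference of -1.32 ± 0.29 (log2, with its SE, 3 arrays each) at a limma adjusted p of 0.107. Under normexp background correction it was -0.59. Its probe checks nothing about the genotype if it lies outside the deletion. All 12 ES cell markers on the array were detected, Pou5f1 among them at 2.55, 2.52 and 2.66 in the wild type arrays and 2.17, 2.14 and 2.00 in the knockout. RNA in each sample comes from whole cultures, so fewer cells of a type and less RNA per cell cannot be told apart.

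Most of the hypoxia-inducible genes read higher in the knockout, but 1 of 34 passed the test. With each gene read by its brightest tested probe, 24 log2 fold changes were positive and 10 negative, and their median was 0.41. Over all 20453 gene names tested, 46.4% were positive and the median was -0.03. Ndufa4l2 was called higher by limma with Benjamini-Hochberg adjustment over all probes, and no member was called lower. Among all genes 0.112% were called higher and 0.396% lower. At an unadjusted p below 0.05, 16 members were higher and 2 lower, beside 9.64% and 12.1% of all genes. In 14 members all 3 knockout arrays lay above all 3 wild type arrays, and in 2 they lay below, beside 12.5% and 16.4% of all genes. Single arrays decided many calls. Without wild type replicate 2, limma called 9 members higher (Ankrd37, Bnip3, Kdm4b, Ndrg1, Ndufa4l2, P4ha1, P4ha2, Ppp1r3c and Selenbp1), when 5.29% of all probes were called higher. Without wild type replicate 1 it called Ndufa4l2 higher and Angptl4 and Anxa1 lower, when 0.762% of all probes were called higher and 1.64% lower. With any other single array left out it called no member, and 0 of all probes tested.

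**Figure D1:**
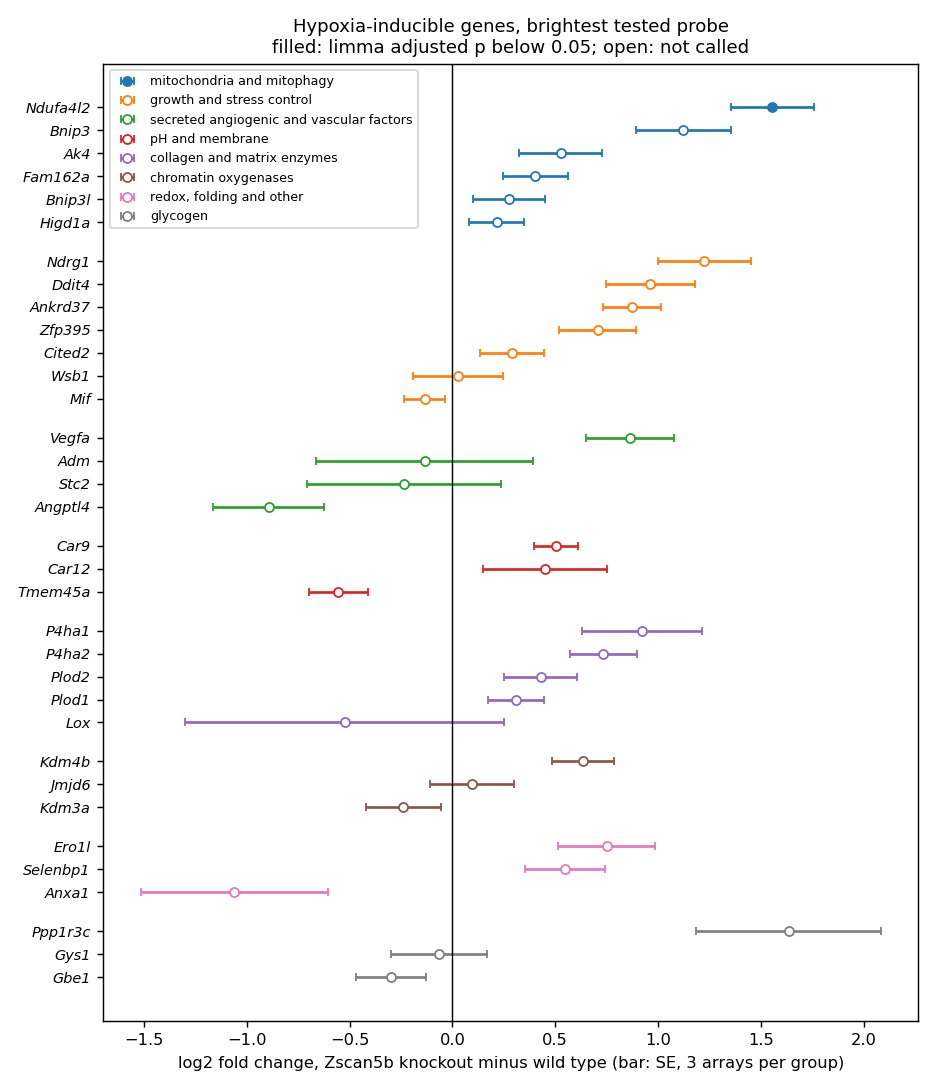
Log2 fold change of each tested member on the x axis (knockout minus wild type), with its standard error as a bar, for the brightest tested probe of the 34 genes grouped by role. Of the points, 24 lie right of 0, and Ndufa4l2, at 1.56, is the only filled one, meaning an adjusted p below 0.05.

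On each array the median over the 34 genes, each set against its own mean over the 6 arrays, separated the genotypes. In replicate order it was -0.16, -0.20 and -0.21 for the wild type arrays and 0.07, 0.28 and 0.28 for the knockout arrays. Knockout replicate 1 stood closest to wild type. The genes also differed in how they varied within a genotype. The members had a median SD among replicates of 0.31 for wild type and 0.20 for the knockout, and 26 of 34 members (76.5%) varied more in wild type, as did 72.7% of all genes.

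**Figure D2:**
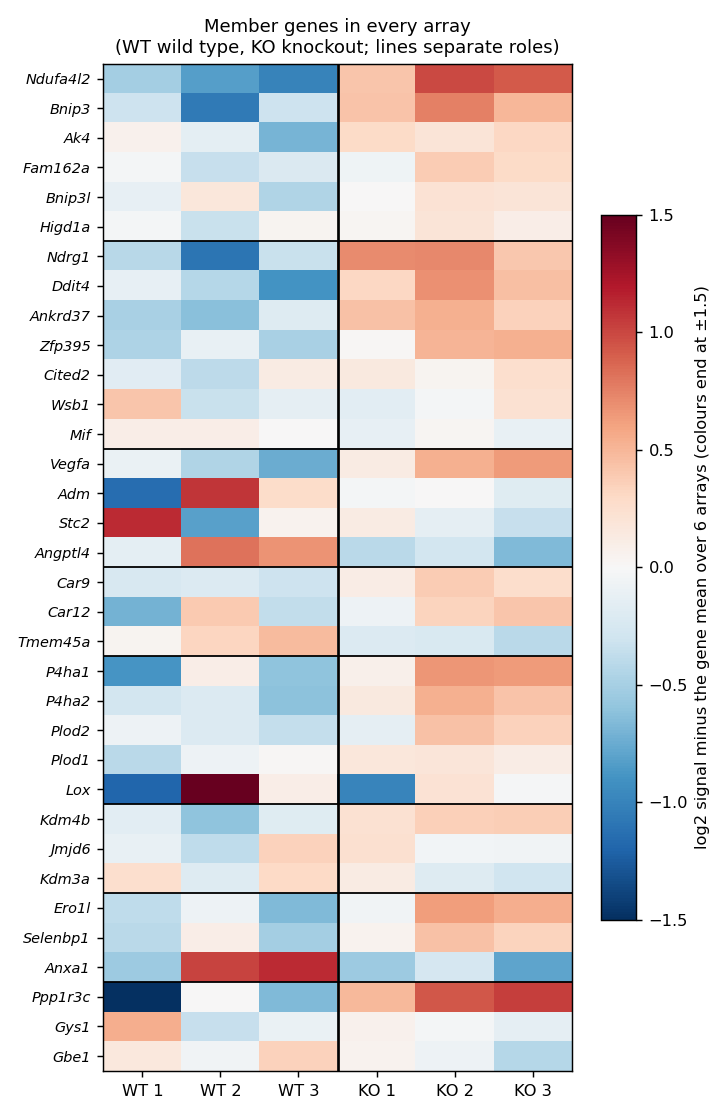
Colour gives the log2 signal of each of the 34 genes (rows, by role) in each array (columns), minus that gene's mean over the 6 arrays, with colours ending at 1.5 on either side of 0. The upper rows, from Ndufa4l2 to Zfp395, run mostly blue in wild type and red in the knockout, while Adm, Angptl4, Lox and Anxa1 are strongest in wild type replicates 2 or 3.

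Because HIF binds DNA at a short core, the sequence just upstream of the start sites was read for the letters ACGTG or GCGTG on either strand (CACGT and CACGC on the printed strand). The palindrome CACGTG, an E-box, holds ACGTG on both strands and counts as 2 matches. RefSeq promoters on the mouse build GRCm38.p6 were available for 27 of the 35 genes, Ero1l under its current name Ero1a. A match lay within 250 bases upstream of any start site in 22 of the 27 genes (81.5%), against 11226 of 27025 genes in all (41.5%). Counted by promoter, 26 of 36 member promoters (72.2%) held a match, against 12679 of 32851 promoters of all genes (38.6%). The members were listed as hypoxia-inducible genes, so an excess of the HIF core was likely beforehand and is no result of these arrays. A match is a description of the letters and not a binding site. The 6 sequences below are the 250 bases before the start, printed 5′ to 3′ along the gene's strand with the matched letters in capitals. They were picked from members with 1 promoter entry whose knockout arrays lay above every wild type array, by lowest unadjusted limma p. Tmem45a, whose knockout arrays lay below, also held 1 match and is not printed. The order of printing is not that of p. The printed genes are Bnip3 (chr7:138909507-138909756, minus strand), Ddit4 (chr10:59951771-59952020, minus), Car9 (chr4:43506776-43507025, plus), Ankrd37 (chr8:45999851-46000100, minus), P4ha2 (chr11:54100674-54100923, plus) and Ppp1r3c (chr19:36736605-36736854, minus).
Bnip3: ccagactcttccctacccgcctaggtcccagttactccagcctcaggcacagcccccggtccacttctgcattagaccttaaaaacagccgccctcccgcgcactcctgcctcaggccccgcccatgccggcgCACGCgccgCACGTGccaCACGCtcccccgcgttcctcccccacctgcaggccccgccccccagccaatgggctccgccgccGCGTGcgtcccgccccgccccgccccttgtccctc
Ddit4: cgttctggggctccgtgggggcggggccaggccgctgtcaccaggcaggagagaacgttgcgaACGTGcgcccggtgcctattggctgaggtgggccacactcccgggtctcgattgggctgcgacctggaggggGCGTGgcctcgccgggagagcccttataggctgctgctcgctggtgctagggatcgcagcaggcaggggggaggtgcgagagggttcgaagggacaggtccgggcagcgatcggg
Car9: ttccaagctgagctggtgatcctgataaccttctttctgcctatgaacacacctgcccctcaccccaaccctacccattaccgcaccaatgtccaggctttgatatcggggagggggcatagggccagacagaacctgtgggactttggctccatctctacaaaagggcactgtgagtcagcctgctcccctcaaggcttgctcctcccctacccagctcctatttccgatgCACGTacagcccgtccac
Ankrd37: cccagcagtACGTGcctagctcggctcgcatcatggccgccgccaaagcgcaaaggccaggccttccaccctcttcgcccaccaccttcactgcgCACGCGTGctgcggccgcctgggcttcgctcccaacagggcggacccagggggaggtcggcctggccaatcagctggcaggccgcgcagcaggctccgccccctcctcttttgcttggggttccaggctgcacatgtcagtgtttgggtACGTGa
P4ha2: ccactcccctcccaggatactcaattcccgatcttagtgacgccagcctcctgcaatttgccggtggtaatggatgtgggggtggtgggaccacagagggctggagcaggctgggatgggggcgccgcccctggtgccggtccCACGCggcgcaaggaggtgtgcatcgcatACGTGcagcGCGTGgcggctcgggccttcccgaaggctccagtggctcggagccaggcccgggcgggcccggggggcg
Ppp1r3c: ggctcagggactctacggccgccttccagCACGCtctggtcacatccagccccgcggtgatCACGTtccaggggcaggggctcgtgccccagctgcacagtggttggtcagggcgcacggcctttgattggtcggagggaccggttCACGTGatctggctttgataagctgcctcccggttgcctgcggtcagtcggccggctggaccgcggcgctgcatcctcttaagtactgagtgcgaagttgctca

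The number of matches differed between these promoters, from 5 in Bnip3, 4 in Ankrd37 and Ppp1r3c and 3 in P4ha2 to 2 in Ddit4 and 1 in Car9. In Car9 the match lies close to the start site, while in Ankrd37 matches stand at both ends of the window. The log2 fold changes of these genes, described with their values further on, were 1.12 for Bnip3, 0.96 for Ddit4, 0.50 for Car9, 0.87 for Ankrd37, 0.73 for P4ha2 and 1.64 for Ppp1r3c. All 10 members with a promoter entry whose knockout arrays lay above every wild type array held a match. So did 11 of the 16 other tested members with an entry, and 41.5% of all genes. A gene with several promoters counted if any of them held a match. Whether matches bear on the fold changes was not tested. No entry was found for Ndufa4l2, Ndrg1, Kdm4b, Zfp395, Angptl4, Bnip3l, Plod2 and Lox.

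The 6 genes of mitochondria and mitophagy were all higher on average in the knockout, with a median log2 fold change of 0.47, and Ndufa4l2 passed the test. Ndufa4l2, a mitochondrial protein that lowers respiratory chain activity in hypoxia, read 0.99, 0.68 and 0.50 in the wild type arrays and 1.92, 2.50 and 2.42 in the knockout (probe at mm9 chr10:126954149-126954208). Every knockout array was above every wild type array. Its level rose from 0.72 ± 0.25 to 2.28 ± 0.31 (SD, n = 3), a 2.94-fold difference with a limma adjusted p of 0.0478. That call was held in 6 of 16 alternative settings. In the settings named next, other than wild type replicate 1 alone, 0 of all probes tested were called. It was lost under normexp background correction, with no detection filter, with a filter on all 6 arrays, with a trended robust prior, with the replicate block (adjusted p 0.184), against wild type replicate 1 alone, and without any 1 of wild type replicate 3 and knockout replicates 1, 2 and 3 (0.103 to 0.211).

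Bnip3, a receptor that directs mitochondria to autophagy, read 4.36, 3.62 and 4.36 in the wild type arrays and 5.10, 5.43 and 5.18 in the knockout (mm9 chr7:146082760-146082819). The groups did not overlap, and the lowest value was that of wild type replicate 2. The log2 fold change was 1.12 ± 0.23 (SE, n = 3 per group) with a limma adjusted p of 0.0959, and the other probes of the gene gave 1.07 and 1.21. It was called, at 0.87, when wild type replicate 2 was left out (limma adjusted p 0.0352). Bnip3l, its paralogue in mitophagy, gave 0.27 to 0.38 over 4 probes, with an adjusted p of 0.380 at the brightest.

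Ak4, an adenylate kinase of the mitochondrial matrix, read 3.26, 3.05 and 2.51 in the wild type arrays and 3.50, 3.40 and 3.51 in the knockout. The knockout arrays lay close together and above the wild type ones, and the difference was 0.53 ± 0.20 (SE, limma adjusted p 0.211). Its dimmer probe gave 0.71. Fam162a, a mitochondrial protein linked to cell death in hypoxia, read 3.85, 3.53 and 3.66 in the wild type arrays and 3.82, 4.26 and 4.17 in the knockout. Knockout replicate 1 lay within the wild type range, and the difference was 0.40 ± 0.16 (adjusted p 0.215). Higd1a, which helps the respiratory chain through low oxygen, differed by 0.21 ± 0.13 (adjusted p 0.370).

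**Figure D3:**
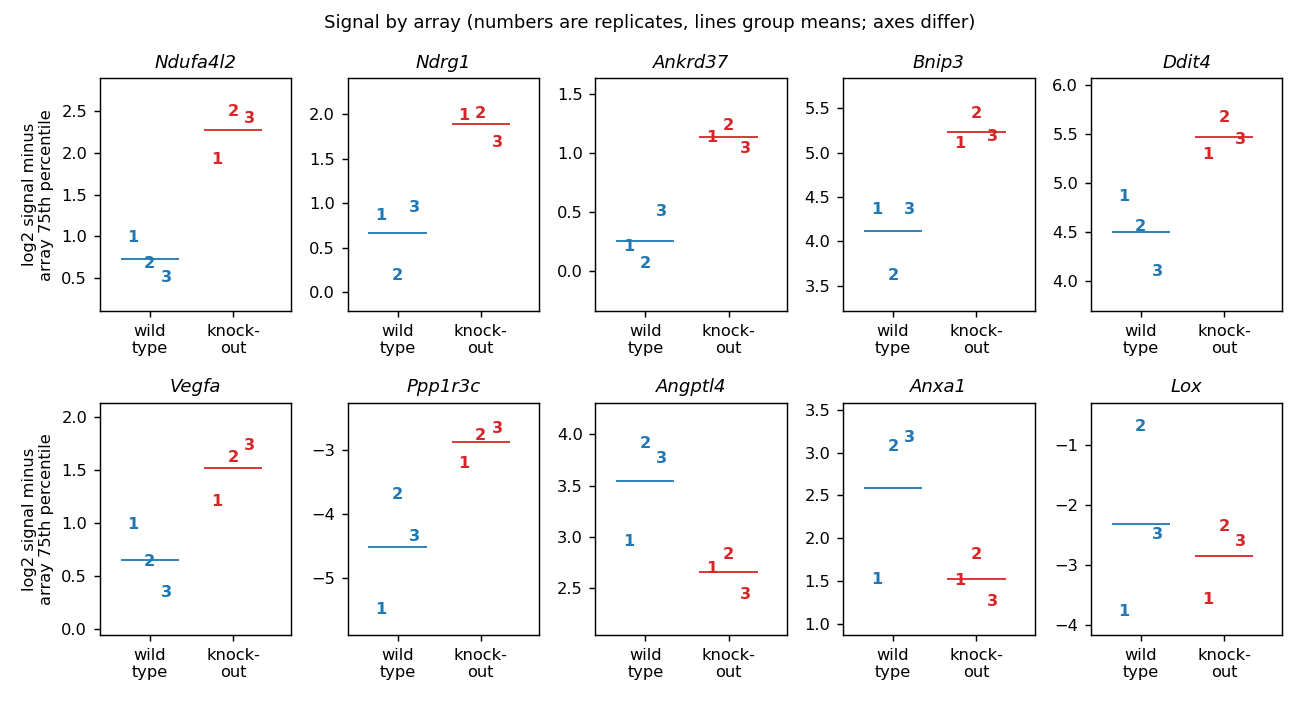
Log2 signal minus the array's 75th percentile (y axis, a scale of its own in each panel) for 10 members, by genotype, with each array marked by its replicate number and group means as lines. In the first 7 panels, Ndufa4l2 to Ppp1r3c, the knockout arrays lie above every wild type array, and in Anxa1 and Lox wild type replicate 1 lies at the knockout level or below it.

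Growth and stress genes had the highest median of any role, 0.70 over 7 genes, of which 6 were positive (46.4% of all genes were). At an unadjusted p below 0.05, 4 were higher, and 4 were higher without overlap, beside 9.64% and 12.5% of all genes. Ndrg1, a stress-responsive protein that restrains growth, read 0.86, 0.19 and 0.95 in the wild type arrays and 1.99, 2.00 and 1.68 in the knockout (mm9 chr15:66761057-66761116). Its log2 fold change was 1.23 ± 0.23 (SE, n = 3 per group, limma adjusted p 0.0817), with no overlap. Ankrd37, an ankyrin repeat protein and HIF target, read 0.21, 0.07 and 0.51 in the wild type arrays and 1.13, 1.23 and 1.04 in the knockout (mm9 chr8:47082404-47082463). The gap between the groups was wider than the spread within either, and the difference was 0.87 ± 0.14 with an adjusted p of 0.0665, the lowest of the members after Ndufa4l2. Both passed without wild type replicate 2, Ndrg1 at 0.98 (limma adjusted p 0.0329) and Ankrd37 at 0.78 (0.03945).

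Ddit4, an inhibitor of mTORC1 also known as REDD1, read 4.86, 4.56 and 4.09 in the wild type arrays and 5.30, 5.67 and 5.44 in the knockout (mm9 chr10:59412486-59412545). The groups did not overlap, and the difference was 0.96 ± 0.22 (SE, limma adjusted p 0.109). Zfp395, a zinc finger gene, read -2.65, -2.30 and -2.67 in the wild type arrays and -2.17, -1.68 and -1.66 in the knockout, again without overlap, for a difference of 0.71 ± 0.19 (adjusted p 0.134). Its 3 dimmer probes gave 0.33, 0.38 and 0.75. Cited2, which competes with Hif1a for the coactivators p300 and CBP, differed by 0.29 ± 0.16 (adjusted p 0.312), and Wsb1, part of a ubiquitin ligase, by 0.03 ± 0.22 (0.953). Mif, a cytokine that read 8.10 ± 0.06 in the wild type arrays and 7.97 ± 0.09 in the knockout (SD, n = 3), differed by -0.13 ± 0.10 (limma adjusted p 0.440). Of its 3 probes the files place 1 on chromosome 3 and the others on chromosome 10, so near-identical copies of Mif may share signal.

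Of the 4 secreted factors, 1 log2 fold change was positive and 3 were negative, and none passed the test. Vegfa, the main angiogenic growth factor, read 0.98, 0.64 and 0.34 in the wild type arrays and 1.20, 1.62 and 1.73 in the knockout (mm9 chr17:46154387-46154446). The groups did not overlap, but wild type replicate 1 and knockout replicate 1 lay close. The log2 fold change was 0.86 ± 0.21 (SE, n = 3 per group, limma adjusted p 0.121), and 0.75 at its other probe. Angptl4, which inhibits lipoprotein lipase, ran the other way, at 2.96, 3.91 and 3.77 in the wild type arrays and 2.69, 2.83 and 2.43 in the knockout (mm9 chr17:33911880-33911939). Its difference was -0.89 ± 0.27 (adjusted p 0.157), and wild type replicate 1 lay much nearer to the knockout than the other two did. Without that array it passed, at -1.19 (adjusted p 0.0333).

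Adm, the vasodilator adrenomedullin, and Stc2, the hormone stanniocalcin 2, differed by -0.13 ± 0.53 (SE, limma adjusted p 0.895) and -0.24 ± 0.47 (0.784). For both, the wild type arrays spread far more than the knockout arrays. Adm had an SD of 1.12 in the wild type arrays and 0.10 in the knockout (n = 3 each), and Stc2 an SD of 0.97 and 0.23.

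Among the membrane genes, Car9 and Tmem45a were separated between the genotypes in opposite directions. Car9, a carbonic anhydrase on the cell surface that exports acid and is a classical HIF target, read -3.44, -3.42 and -3.51 in the wild type arrays and -3.09, -2.83 and -2.94 in the knockout (mm9 chr4:43526518-43526577). The difference was 0.50 ± 0.11 (SE, n = 3 per group, limma adjusted p 0.102), and the wild type arrays had an SD of 0.05. Under normexp it was 0.28. Tmem45a, a membrane protein, read -0.34, -0.06 and 0.10 in the wild type arrays and -0.58, -0.61 and -0.79 in the knockout, a difference of -0.56 ± 0.14 (adjusted p 0.128). Car12, another surface carbonic anhydrase, differed by 0.45 ± 0.30 (adjusted p 0.398) and overlapped.

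Collagen-modifying enzymes were higher on average in the knockout, and the cross-linking enzyme Lox was not. P4ha1 and P4ha2 are catalytic subunits of the enzyme that hydroxylates proline in collagen. P4ha2 read 0.10, 0.17 and -0.24 in the wild type arrays and 0.52, 0.90 and 0.80 in the knockout (mm9 chr11:53945032-53945091), with no overlap and a difference of 0.73 ± 0.16 (SE, n = 3 per group, limma adjusted p 0.107). P4ha1 read -2.95, -1.97 and -2.67 in the wild type arrays and -1.99, -1.40 and -1.43 in the knockout. Wild type replicate 2 and knockout replicate 1 met at nearly the same value, and the difference was 0.92 ± 0.29 (adjusted p 0.167). The other P4ha1 probe, much dimmer, gave 1.35. It was well above background on 1 wild type array and on all 3 knockout arrays, so it is no support for the difference. Both genes passed without wild type replicate 2, P4ha2 at 0.81 (limma adjusted p 0.04905) and P4ha1 at 1.20 (0.04185).

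Plod1 and Plod2 hydroxylate lysine in collagen. Plod1 read -2.31, -1.98 and -1.89 in the wild type arrays and -1.73, -1.73 and -1.79 in the knockout, a difference of 0.31 ± 0.14 (SE, limma adjusted p 0.242) with no overlap. Plod2 read -0.59, -0.71 and -0.87 in the wild type arrays and -0.64, -0.07 and -0.16 in the knockout, a difference of 0.43 ± 0.18 (adjusted p 0.231), with knockout replicate 1 inside the wild type range. Lox, which cross-links collagen and elastin, read -3.77, -0.69 and -2.48 in the wild type arrays and -3.56, -2.35 and -2.60 in the knockout. Its difference of -0.52 ± 0.78 (adjusted p 0.705) was smaller than its wild type SD of 1.54. The sign of Lox changed with array weights (0.20), without wild type replicate 2 (0.29) and against wild type replicate 1 alone (0.93).

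The 3 chromatin oxygenases gave separate results. Kdm4b, a demethylase of histone H3 lysine 9, read 0.82, 0.37 and 0.80 in the wild type arrays and 1.20, 1.34 and 1.35 in the knockout (mm9 chr17:56542216-56542275). The groups did not overlap, and the log2 fold change was 0.64 ± 0.15 (SE, n = 3 per group, limma adjusted p 0.114). Leaving out wild type replicate 2 brought it past the threshold, at 0.49 (adjusted p 0.0477). Kdm3a, a demethylase of the same residue and a HIF target, differed by -0.24 ± 0.18 (adjusted p 0.452). Jmjd6, a hydroxylase of lysine in splicing factors, differed by 0.10 ± 0.20 (adjusted p 0.799).

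The log2 fold change of Ppp1r3c was above that of Ndufa4l2 here but not under normexp, quantile normalization or without wild type replicate 1. Ppp1r3c, a subunit that brings protein phosphatase 1 to glycogen, missed the threshold. It read -5.50, -3.69 and -4.36 in the wild type arrays and -3.21, -2.77 and -2.67 in the knockout (mm9 chr19:36806457-36806516), well above background on all 6 arrays. The difference was 1.64 ± 0.45 (SE, n = 3 per group, limma adjusted p 0.141), and wild type replicate 1 was far below the rest. Against wild type replicates 2 and 3 alone it was 1.14, when that of Ndufa4l2 was 1.69. Without wild type replicate 2 Ppp1r3c passed at 2.05 (limma adjusted p 0.04115). Under normexp background correction it was 0.75, against 1.55 for Ndufa4l2, and under quantile normalization 1.59 against 1.62. Gys1, the glycogen synthase of muscle, differed by -0.07 ± 0.23 (adjusted p 0.883), and Gbe1, the branching enzyme, by -0.30 ± 0.17 (0.340).

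Of the remaining 3, Ero1l, the oxidase that makes disulfide bonds in the endoplasmic reticulum, read -1.56, -1.25 and -1.84 in the wild type arrays and -1.22, -0.55 and -0.62 in the knockout. Knockout replicate 1 lay just above wild type replicate 2, and the difference was 0.75 ± 0.24 (SE, n = 3 per group, limma adjusted p 0.165). Selenbp1, a selenium-binding protein, read -0.78, -0.28 and -0.88 in the wild type arrays and -0.32, 0.06 and -0.04 in the knockout, overlapping by a narrow margin, for 0.55 ± 0.20 (adjusted p 0.195). Without wild type replicate 2 it passed, at 0.73 (adjusted p 0.0451). Anxa1, a phospholipid-binding annexin, read 1.51, 3.07 and 3.18 in the wild type arrays and 1.51, 1.81 and 1.27 in the knockout. Wild type replicates 2 and 3 stood apart from the other 4 arrays, and the difference was -1.06 ± 0.46 (adjusted p 0.239), which passed at -1.60 without wild type replicate 1.

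Different probes of a gene gave the same sign in 12 of the 13 members with several tested probes. At Gbe1 the dimmer probe, well above background on 1 wild type array and on all 3 knockout arrays, gave 0.57 against -0.30 at the brighter one, and neither had an unadjusted p below 0.05. Probes of 1 gene share the RNA of the same arrays, so they are not separate evidence. The dimmer P4ha1 probe, counted here, was also well above background on 1 wild type array and on all 3 knockout arrays. Over all 53 probes, 38 log2 fold changes were positive (48.6% of all probes tested were) and the median was 0.38. Limma called 1 of them higher, beside 0.124% of all probes, and none lower, beside 0.341%. At an unadjusted p below 0.05, 23 were higher and 2 lower, beside 10.6% and 11.3%, and 20 lay above and 2 below without overlap, beside 13.6% and 15.4%.

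**Figure D4:**
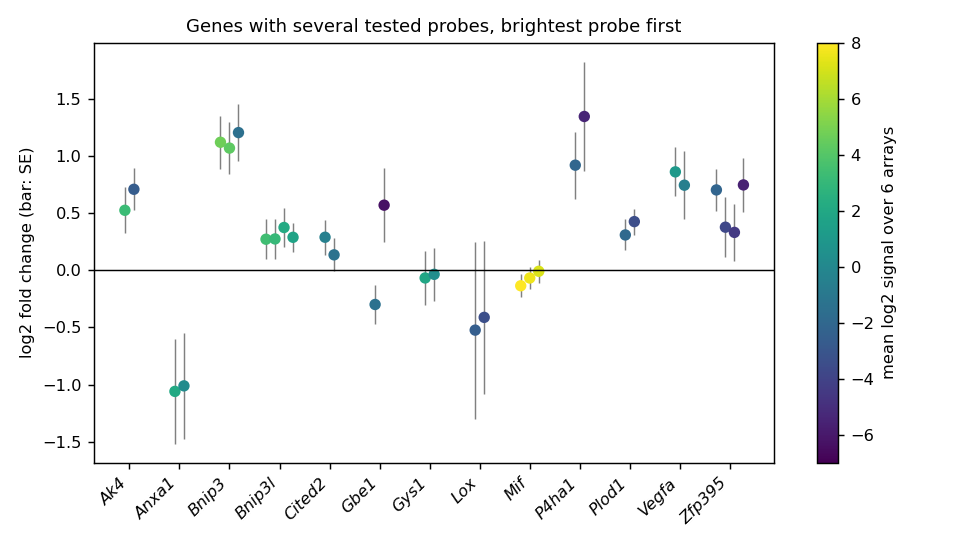
Log2 fold change with its standard error (y axis) for every tested probe of the 13 members with several, ordered from the brightest probe, with colour giving mean log2 signal over the 6 arrays. Probes of Bnip3 lie between 1.07 and 1.21, and at Gbe1 the sign differs.

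Feeder fibroblast markers differed among the wild type arrays, and several members differed among those arrays too. The 25 markers, all detected, averaged -0.55, 1.00 and 0.91 in the wild type arrays, in replicate order, and -0.62, -0.20 and -0.54 in those of the knockout, on a log2 scale relative to each gene's mean over the arrays. Of them 24 of 25 were lower in the knockout, with a median log2 fold change of -0.86, and none was called by limma (8 were lower at an unadjusted p below 0.05). On this list wild type replicate 1 lay among the knockout arrays. The mean of wild type replicates 2 and 3 exceeded replicate 1 by 0.36 or more (rounded) in 9 members, which lay on both sides of the comparison of genotypes. That cut was chosen after the values were seen, and the share of all genes above it was not counted. Among members with a negative log2 fold change the excess was 2.18 for Lox, 1.81 for Adm, 1.61 for Anxa1, 0.88 for Angptl4 and 0.36 for Tmem45a. Among those with a positive one it was 1.47 for Ppp1r3c, 0.72 for Car12, 0.64 for P4ha1 and 0.38 for Plod1. Other members ran the opposite way, at -1.51 for Stc2, -0.76 for Gys1, -0.65 for Wsb1, -0.53 for Ddit4 and -0.49 for Vegfa. Ak4 stood at -0.48, Ndufa4l2 at -0.40 and Bnip3 at -0.38. Over the 34 members the median excess was -0.02, with 15 positive (44.1%). Over all genes it was -0.03, with 44.6% positive. The part of feeder RNA in these values was not tested.

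Set against wild type replicate 1 alone, from which the feeder markers of the knockout differed by a median of 0.06 (single markers from -0.74 to 0.94), the members had a median of 0.48, with 26 of 34 positive. Over all genes that median was -0.04, with 45.8% positive. All 3 knockout arrays lay above wild type replicate 1 in 23 of 34 members (67.6%) and in 33.5% of all genes. They lay below it in 8 members (23.5%) and in 41.5% of all genes. These values rest on 1 wild type array, and the part of feeder RNA in them was not tested. Ndufa4l2 differed by 1.29 in this comparison, Ndrg1 by 1.03, Ankrd37 by 0.92, Bnip3 by 0.87, Ddit4 by 0.61 and Vegfa by 0.54. Anxa1 differed by 0.01 and Angptl4 by -0.30, and with 1 wild type array no member was called by limma.

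**Figure D5:**
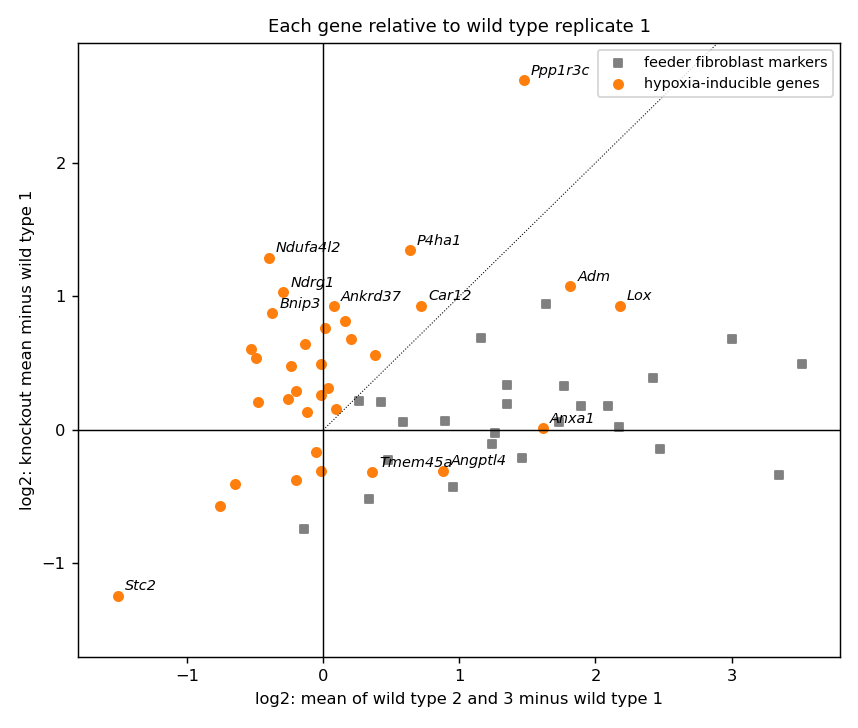
Each point is a gene, placed by the mean of wild type replicates 2 and 3 minus wild type replicate 1 (x axis) and the knockout mean minus wild type replicate 1 (y axis), both log2, with the 34 members as circles, the 25 feeder markers as squares, and a dotted diagonal where the knockout would equal wild type replicates 2 and 3. Feeder markers spread to the right near 0 on the y axis (medians 1.35 and 0.06), while the members' medians are -0.02 on x and 0.48 on y.

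The rest of the pathway was read from lists of other genes. Among 14 regulators of HIF, 8 log2 fold changes were positive and 6 negative (median 0.09), and limma called Egln1 alone. Egln1, the main HIF prolyl hydroxylase, read -4.62, -4.69 and -4.68 in the wild type arrays and -3.12, -3.30 and -3.15 in the knockout, a rise of 1.47 ± 0.10 (SE, n = 3 per group, adjusted p 0.0374). Hif1a, the oxygen-regulated subunit, read 0.915, 1.102 and 0.942 in the wild type arrays and 0.53, 0.69 and 0.61 in the knockout, without overlap, a difference in RNA of -0.37 ± 0.10 (adjusted p 0.145). Of 22 glycolytic hypoxia targets, 19 were positive (median 0.42), 11 were higher at an unadjusted p below 0.05, and the called one was Pfkfb3, whose product switches on phosphofructokinase (1.11, adjusted p 0.0453). Of 21 other hypoxia-inducible genes tested, 9 were positive and 12 negative (median -0.04), 6 were higher and 1 lower at an unadjusted p below 0.05, and Tfrc, the transferrin receptor, was called (1.03, adjusted p 0.0411). Whether these lists differ from the 34 members was not tested.

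Markers of other cell types that could be present were read in the same way. Of 9 primitive endoderm markers tested 5 were positive (median 0.04), with 3 higher and 2 lower at an unadjusted p below 0.05 and none called by limma. They ran from -1.25 for Sox7 to 1.58 for Foxa2, so the median hides differences both ways. Dab2, counted as lower, had no value in wild type replicate 1, so it rests on wild type replicates 2 and 3. Pdgfra stands on this list and among the feeder fibroblast markers. Of 12 ES cell markers 7 were positive (median 0.05), with 2 higher and 1 lower at that p and none called by limma. Of 10 trophoblast markers named, 9 were on the array and 5 could be tested (Krt8, Krt18, Eomes, Gata3 and Ascl2). Cdx2, Elf5, Hand1, Tfap2c and Plac1 could not. All 5 trophoblast markers tested were positive (median 0.69), 3 of them at an unadjusted p below 0.05 and none called by limma. Their part in the members' values was not tested.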

How the data were processed

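Members and lists were chosen with earlier results of these data known. Sample titles gave the groups. The authors deposited scanner tables of spot intensity with background flags, made with background subtracted by spatial detrending in Feature Extraction (10.7.3.1 per the file headers, 10.3.1.1 in the submitters' processing notes). The authors' series table holds log2 values centred per probe, with its scaling not stated. Its columns followed the centred scanner values (r at least 0.999, slope near 1), and it served as an alternative.

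Control spots and spots flagged as outliers were dropped, intensities were taken as log2 and averaged over a probe's spots, and arrays were shifted by their 75th percentile. Probes well above background on at least 3 of 6 arrays (26651, 67.6%) were compared with limma 3.58.1 (R 4.3.3, data.table version 1.17.8), two-sided, with Benjamini-Hochberg adjustment at 0.05, and 26649 gave a p. Slide was no covariate, since each genotype had its own. A gene was read by its brightest tested probe. No probe was saturated. Probe positions are on mm9 as the files give them, with no annotation of exons used here, and promoters were searched with a script. Every member has its log2 fold change, and values per array are given for members at an unadjusted p below 0.05 and for the collagen group, with any other member so shown (Anxa1) chosen after its values were seen. Other genes named are Zscan5b, Egln1, Hif1a, called list genes, the trophoblast markers and, chosen after their values were seen, Pou5f1, Sox7, Foxa2, Dab2 and Pdgfra. The analysis was tested on simulated data. Alternatives covered background correction, scaling, detection filter, prior, array weights, replicate block, single arrays left out and the deposited log2 table.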

Additional observations from a re-analysis of the deposited data

How the results depend on the processing

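The limits are 3 arrays per genotype, a slide per genotype and feeder markers that differed between wild type arrays. Over 16 alternative settings, 27 of 34 members had their log2 fold change on the same side of 0 throughout, and Adm, Anxa1, Gys1, Jmjd6, Lox, Stc2 and Wsb1 did not. Lox turned to 0.20 with array weights and 0.93 against wild type replicate 1 alone, and ranged from -1.25 to 0.29 with 1 array left out. The median of the members was 0.41, 0.32 under normexp and between 0.33 and 0.52 with 1 array left out, and 23 to 26 members were positive. The number of member genes called by limma, 1 in the main analysis, was 0 under normexp, with no detection filter, with a filter on all 6 arrays and with a trended robust prior. In those settings 0 member probes were called higher as well, and 0 of all probes tested were called in either direction. With array weights 11 genes and 14 probes were called higher, when 3.04% of all probes were, and the weight of knockout replicate 2 was then 5.86 against 0.30 to 1.14 for the others. With 1 array left out, 0 to 9 member genes were called, with 0 to 12 probes higher and 0 to 3 probes lower. Zscan5b passed under 2 settings, at -1.58 with array weights (limma adjusted p 0.0394) and at -1.54 with wild type replicate 2 left out (0.0416), ranged from -1.55 to -1.08 with 1 array left out and was -0.59 under normexp (0.107). Quantile normalization, a shift to the median and the authors' table each called Ndufa4l2 alone among the members. Of all probes these settings, in that order, called 0.188%, 0.203% and 0.124% higher and 0.492%, 0.664% and 0.326% lower. The causes were not tested.

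Deviations from the group mean correlated at 0.16, 0.23 and -0.14 between same-numbered arrays, and at -0.32 to 0.21 between differently numbered ones. Deviations within a group of 3 arrays sum to 0, so these values cannot decide whether replicate numbers pair the samples. With the replicate block 0 member genes and 0 member probes were called, as were 0 of all probes, and the adjusted p of Ndufa4l2 was 0.184.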
